A study of Homo sapiens with 6 samples.

Results

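The enzymes that make serine and glycine and pass their carbon to folate were followed through 10 genes, PHGDH, PSAT1, PSPH, SHMT1, SHMT2, MTHFD1, MTHFD2, MTHFD1L, ALDH1L2 and GLDC, out of 34738 genes in the expression table. They were picked by gene name, and the set was chosen by the pathway with the siGDF15 against NC differences of these same 6 libraries already known. Their levels and fold changes are therefore given as a description, with no p-value, and how many of them the fit across all genes called is stated only beside the share of all genes called. Lists of other pathway genes, given further on, were also chosen with earlier results of these data known. The adjusted p-values of their genes come from the fit across all genes and are no independent test of a list. All 10 were listed, and 9 passed the filter on low values that preceded the test across all genes, which was a mean FPKM (a level in sequenced fragments, corrected for transcript length and for the fragments mapped in the library) of at least 1. GLDC did not pass.

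RNA was sequenced from KHM-5M, a human thyroid cancer cell line, after GDF15, which encodes a secreted protein of the TGF-beta superfamily, had been knocked down with a small interfering RNA (siGDF15). The comparison group was NC, described as a blank control with the deposited data and as negative control cells in the study's methods, and these accounts could not be reconciled. Each group had 3 libraries that the study calls biological replicates, all from 1 cell line carrying no other listed alteration, and elsewhere the study names TPC-1 as the line of the sequencing. No sampling time was given for the libraries. In bulk RNA of a culture, fewer cells expressing a gene and less RNA of it per cell cannot be told apart.

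Cells build serine from a glycolytic intermediate in 3 steps, catalysed in turn by PHGDH, PSAT1 and PSPH. Serine hydroxymethyltransferases then move a carbon from serine to tetrahydrofolate and release glycine, in the cytosol (SHMT1) and in mitochondria (SHMT2). In mitochondria MTHFD2 oxidises that carbon and MTHFD1L then releases it as formate. The formate leaves for the cytosol, where MTHFD1 loads it back onto folate for the synthesis of purines and thymidylate. ALDH1L2 burns the carbon to carbon dioxide in mitochondria, and GLDC is the glycine-splitting subunit of the glycine cleavage system. Several of these genes are known as targets of ATF4, the transcription factor of the amino acid response, and proliferating cells commonly use the pathway heavily.

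Promoter stretches of PSAT1, PHGDH and MTHFD2, the genes with the lowest siGDF15 levels relative to NC, are shown first. A stretch of MTHFD1L is added because, of the matched genes, it alone held the letters TGATGNAA. RefSeq (GRCh38.p14) promoter windows, each with 250 bases before and 50 bases from the start site, matched 7 of the 10 genes. They matched PHGDH, PSAT1, SHMT1, MTHFD1, MTHFD2, MTHFD1L and GLDC, and those of PSPH, SHMT2 and ALDH1L2 were not used here. The PSAT1 stretch is the 250 bases upstream of its start, chr9:78296875-78297124 on the plus strand, which overlap no exon of the GENCODE 29 annotation. Capitals mark CCAAT, the letters of a CCAAT box.

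PSAT1: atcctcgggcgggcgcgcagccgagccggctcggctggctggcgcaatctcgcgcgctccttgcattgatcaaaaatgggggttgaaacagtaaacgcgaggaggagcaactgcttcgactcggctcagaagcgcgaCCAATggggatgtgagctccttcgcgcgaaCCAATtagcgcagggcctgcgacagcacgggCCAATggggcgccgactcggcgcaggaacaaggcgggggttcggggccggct

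CCAAT stood 113, 83 and 52 bases upstream of the PSAT1 start, 71 bases upstream of the PHGDH start, and 184 and 74 bases upstream of the MTHFD2 start. SHMT1, which was higher in siGDF15, held it 76 bases upstream and, on the opposite strand, 25 bases upstream. MTHFD1 held it 216 bases upstream and, on the opposite strand, 35 bases downstream. It stood 40 bases upstream of the MTHFD1L start at 150866333 and, on the opposite strand, 54 bases upstream of the GLDC start. Short plus-strand windows around these letters are given for PHGDH (chr1:119711851-119711879, overlapping annotated exons of PHGDH) and for MTHFD2 (chr2:74198418-74198446 and chr2:74198528-74198556, both overlapping an annotated exon of another gene). The last line is MTHFD1L at chr6:150866347-150866375, overlapping an annotated exon of that gene, and there the capitals mark TGATGNAA, the core of the C/EBP-ATF response element that ATF4 binds.

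PHGDH: gagtatttccgtCCAATcaaaaggagact
MTHFD2, farther: ggctcttctggctCCAATcaaaagcaggg
MTHFD2, nearer: catgcggcagggaCCAATgggtggcggag
MTHFD1L: ccgccggctcTGATGCAAtcgcgccgggc

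Both strands were searched in 35116 promoter windows. CCAAT occurred in 34.6% of all windows and in at least 1 window of all 7 matched genes, and 3 or more matches, as in PSAT1, occurred in 3.26% of windows. TGATGNAA occurred in 3.62% of windows and, of the 7 genes, in MTHFD1L alone. The same match lay 24 bases downstream of the MTHFD1L start at position 150866333, 90 bases upstream of the start at 150866447 and 129 bases upstream of the start at 150866486. The E-box CACGTG occurred in 7.26% of windows, MTHFD1 and MTHFD1L among them. The E2F letters TTTCCCGC (1.63% of windows) and TTTGGCGC (0.652%) occurred in none of the 7, and TTTGAA, a cell cycle homology element, occurred in 15.2% of windows and in 1 of the 7 genes. A match is only a run of letters in these windows.

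The deposited counts summed to between 67569576 and 68025163 per NC library and to 67672774, 51738814 and 67793417 in the siGDF15 libraries, so siGDF15 replicate 2 was the shallowest. GDF15 itself (chr19, 18374731 to 18389176) was at 22.4, 19.3 and 23.1 FPKM in NC and at 10.8, 10.5 and 10.7 FPKM in siGDF15. The groups did not overlap, and the log2 fold change was -0.92 (SE 0.0792, adjusted p = 2.4e-05, edgeR quasi-likelihood test). An exact two-sided permutation test of GDF15 gave p = 0.1, the smallest that 3 against 3 libraries allow. Mitochondrially encoded genes took 6.39% to 6.78% of counts in NC and 8.53% to 9.17% in siGDF15. Of the thyroid markers, PAX8 was at 59.1 FPKM in NC and 79.4 FPKM in siGDF15, FOXE1 at 2.76 and 2.83 FPKM, TG, SLC5A5, NKX2-1 and DUOX2 were under 0.2 FPKM on average in both groups, and TSHR was not found in the table. The summed level of 5 epithelial markers ran from 102 to 149 FPKM in NC and from 126 to 136 FPKM in siGDF15, and their median change was 0.29 (log2). KRT18 was at 92.6 and 93.9 FPKM, KRT8 at 15.8 and 18.0, KRT19 at 13.2 and 14.4 and EPCAM at 1.86 and 2.32 FPKM, none of them called in the main fit. Without NC replicate 3 each was called higher (adjusted p = 0.011, 0.005, 0.038 and 0.009, in that order). CDH1 was called higher (0.897 to 1.28 FPKM, log2 fold change 0.61, adjusted p = 0.049), but not without TMM (0.51, 0.084) or on leaving out NC replicate 1 (0.61, 0.11) or 2 (0.39, 0.076) or siGDF15 replicate 1 (0.69, 0.072), 2 (0.51, 0.15) or 3 (0.64, 0.093). Its NC mean was under the filter of 1 FPKM, and it entered the test only through its siGDF15 level. Nothing is therefore read from the CDH1 call. The summed level of 4 leukocyte markers ran from 0.107 to 0.256 FPKM in NC and from 0.607 to 0.827 FPKM in siGDF15, almost all of it CD14, while PTPRC and CD3E were each listed at 0 in 5 of 6 libraries. For 3 endothelial markers the ranges were 0.0888 to 0.140 and 0.125 to 0.198 FPKM. The part of the mitochondrial share and of these markers in the differences below was not tested.

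The members of serine synthesis (PHGDH, PSAT1 and PSPH) and the mitochondrial folate enzymes among the members (SHMT2, MTHFD2, MTHFD1L and ALDH1L2) were at lower levels in siGDF15 cells, and the cytosolic SHMT1 was at a higher one. MTHFD2L, a mitochondrial relative of MTHFD2 outside the set, was at 0.684 FPKM in NC and 0.696 FPKM in siGDF15 with overlapping libraries. PSAT1, PHGDH and MTHFD2 differed the most, with a mean FPKM in NC that was 5.77, 3.96 and 3.23 times that in siGDF15. SHMT2, ALDH1L2 and MTHFD1L were lower by smaller factors, and PSPH and MTHFD1 lay closest to their NC levels. SHMT1 stood alone in the other direction. All log2 fold changes are siGDF15 against NC, from edgeR with TMM scaling.

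At an adjusted p under 0.05, 8 of the 9 fitted members were called lower, where 31.4% of the 11867 genes tested were called lower. One member, SHMT1, was called higher, where 30.0% of genes were. In either direction 9 of 9 were called, against 61.4% of all genes. With a log2 fold change of at least 1 as well, 3 members were lower (4.78% of all genes) and 0 were higher (3.03%). Without TMM scaling the calls over all genes divided into 2701 higher and 4679 lower, in place of 3565 and 3721. Over all 10 members the NC and siGDF15 libraries did not overlap, with 9 lower and 1 higher, whereas 42.8% of tested genes did not overlap and were lower and 68.4% did not overlap in either direction. These comparisons are the ones the set was chosen with, so nothing is read from the counts. The median log2 fold change of the 9 was -0.56, beside 0.0026 over all genes tested, whose central 90% ran from -0.99 to 0.83.

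**Figure D1:**
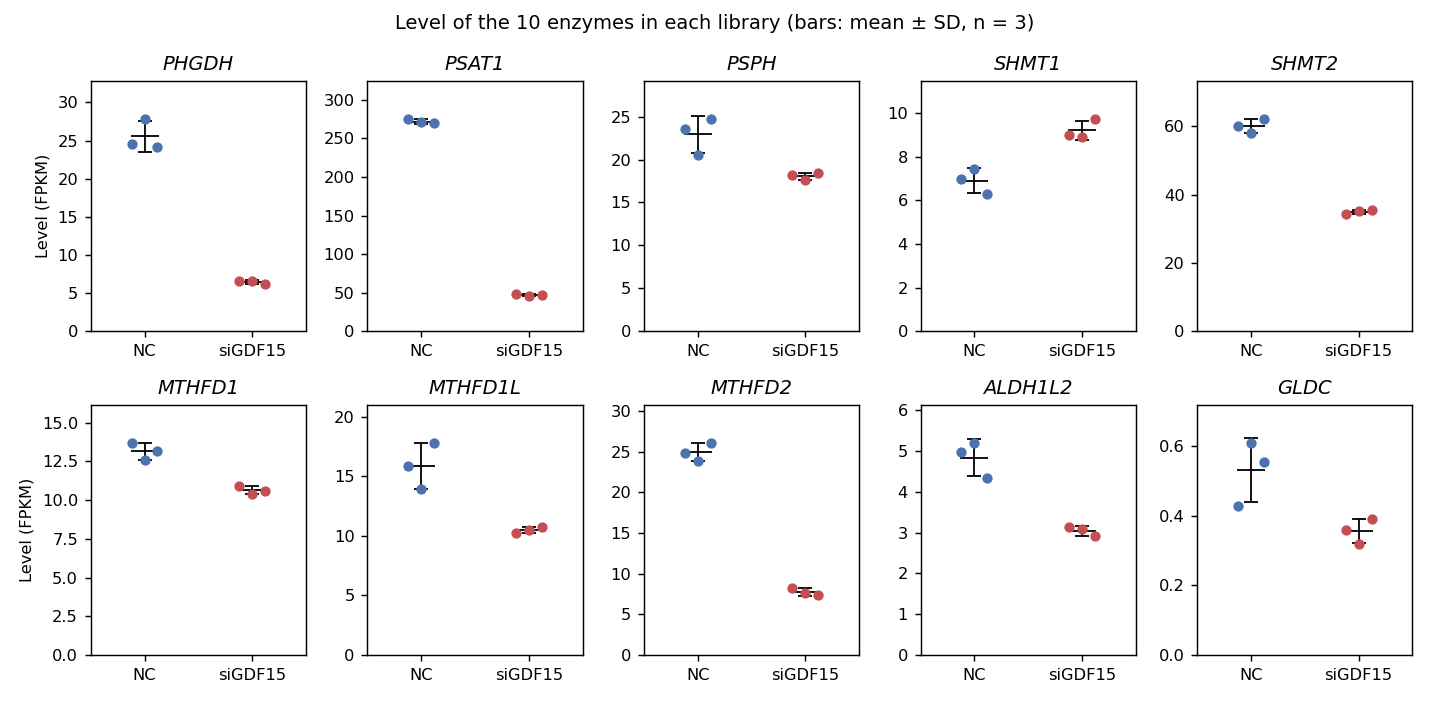
Level of each of the 10 genes in every library, in FPKM, with NC and siGDF15 libraries as separate points and the group mean and SD (n = 3) marked. In no gene do the groups overlap, though in GLDC the lowest NC library (0.429 FPKM) lies near the highest siGDF15 library (0.391 FPKM).

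PSAT1, the phosphoserine aminotransferase (ENSG00000135069, chr9, 78297125 to 78330093), was the most abundant member and the one with the largest difference. Its level was 275, 271 and 270 FPKM in NC and 48.8, 45.8 and 46.9 FPKM in siGDF15. The NC libraries lay within a few FPKM of each other, and every one was more than 5 times as high as any siGDF15 library. The means were 272 ± 2.65 and 47.2 ± 1.54 FPKM (SD, n = 3), and the log2 fold change was -2.42 (SE 0.0432). PSAT1 ranked 77 in NC level and 10 in size of decrease among the 11867 genes tested.

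PHGDH, the dehydrogenase that opens the pathway (ENSG00000092621, chr1, 119648411 to 119744218), was at 24.6, 27.8 and 24.2 FPKM in NC and at 6.56, 6.63 and 6.16 FPKM in siGDF15. NC replicate 2 was the high library, and all siGDF15 libraries were far below the lowest NC library. The means were 25.5 ± 1.94 and 6.45 ± 0.256 FPKM, with a log2 fold change of -1.88 (SE 0.0639).

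PSPH, the phosphatase of the last step (ENSG00000146733, chr7, 56011051 to 56051467), stood apart from the enzymes before it. It was at 23.6, 20.5 and 24.7 FPKM in NC and at 18.2, 17.6 and 18.4 FPKM in siGDF15. The groups came close, with the lowest NC library 20.5 and the highest siGDF15 library 18.4 FPKM. The means were 22.9 ± 2.20 and 18.1 ± 0.454 FPKM and the log2 fold change was -0.24 (SE 0.0753). Its place among the called genes was lost when every library was scaled to the same median (-0.18) and on leaving out NC replicate 1 (-0.22), NC replicate 3 (-0.17), or siGDF15 replicate 1 (-0.24), 2 (-0.22) or 3 (-0.25). A pseudogene, PSPHP1, reached 3.64 FPKM (72 counts) in 1 library, so a small part of the PSPH reads may be shared with it.

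SHMT2, the mitochondrial hydroxymethyltransferase (ENSG00000182199, chr12, 57229573 to 57234935), was at 60.0, 58.0 and 62.1 FPKM in NC and at 34.2, 35.2 and 35.4 FPKM in siGDF15. The means of 60.1 ± 2.05 and 34.9 ± 0.664 FPKM gave a log2 fold change of -0.68 (SE 0.0477). SHMT1, its cytosolic counterpart (ENSG00000176974, chr17, 18327860 to 18363563), was at 6.99, 7.44 and 6.31 FPKM in NC and at 9.01, 8.93 and 9.73 FPKM in siGDF15. It was the only member above its NC level, with means of 6.91 ± 0.566 and 9.22 ± 0.441 FPKM and a log2 fold change of 0.52 (SE 0.0674). Genes on the opposite strand overlap both loci, SMCR8 at SHMT1 (4.45 FPKM in NC and 4.90 in siGDF15) and NDUFA4L2 at SHMT2 (6.81 and 6.65). The library kit kept strand, and whether the counting used it was not stated.

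MTHFD2, the mitochondrial methylenetetrahydrofolate dehydrogenase (ENSG00000065911, chr2, 74186172 to 74217565), was at 24.9, 23.9 and 26.1 FPKM in NC and at 8.24, 7.56 and 7.39 FPKM in siGDF15. Every siGDF15 library was well below every NC library. The means were 25.0 ± 1.10 and 7.73 ± 0.451 FPKM and the log2 fold change was -1.59 (SE 0.0587). MTHFD1L, which releases formate in mitochondria (ENSG00000120254, chr6, 150865679 to 151101887), was at 15.9, 13.9 and 17.8 FPKM in NC and at 10.2, 10.5 and 10.7 FPKM in siGDF15. Its NC libraries were the more spread, at 15.8 ± 1.94 FPKM against 10.4 ± 0.255 FPKM, and its log2 fold change was -0.50 (SE 0.0885).

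MTHFD1, the cytosolic enzyme with 3 activities (ENSG00000100714, chr14, 64388031 to 64463457), was at 13.7, 12.6 and 13.2 FPKM in NC and at 10.9, 10.4 and 10.6 FPKM in siGDF15. The libraries of each group were tight, and the groups were apart by less than 2 FPKM at their nearest. The means were 13.2 ± 0.556 and 10.6 ± 0.273 FPKM, with a log2 fold change of -0.21 (SE 0.0477). ZBTB25 overlaps it on the opposite strand at 1.03 and 1.17 FPKM.

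ALDH1L2, the mitochondrial formyltetrahydrofolate dehydrogenase (ENSG00000136010, chr12, 105019784 to 105084458), was at 4.98, 5.20 and 4.33 FPKM in NC and at 3.13, 3.08 and 2.91 FPKM in siGDF15. The means were 4.84 ± 0.451 and 3.04 ± 0.116 FPKM and the log2 fold change was -0.56 (SE 0.0770), which is the median of the set. GLDC (ENSG00000178445, chr9, 6532467 to 6645729) was the least abundant member, at 0.429, 0.610 and 0.556 FPKM in NC (292, 410 and 375 counts) and at 0.358, 0.320 and 0.391 FPKM in siGDF15 (245, 169 and 264 counts). Its groups did not overlap, at 0.532 ± 0.0931 against 0.356 ± 0.0352 FPKM, and with the filter lowered to 0.1 FPKM its log2 fold change was -0.49 (SE 0.172).

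**Figure D2:**
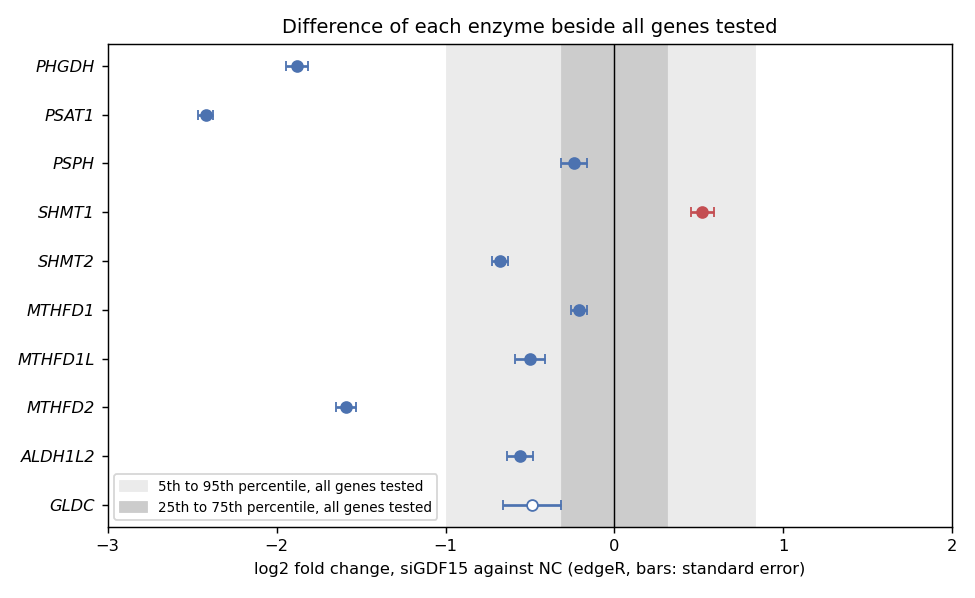
Log2 fold change, siGDF15 against NC, of the 9 fitted members and GLDC, with its standard error as bars. GLDC, the open point (-0.49), comes from the fit with the filter lowered to 0.1 FPKM. Grey bands mark the 5th to 95th and the 25th to 75th percentile of all genes tested. PSAT1 (-2.42), PHGDH (-1.88) and MTHFD2 (-1.59) lie beyond -1, 5 fitted members and GLDC lie between -1 and 0, and SHMT1 (0.52) lies above 0.

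Ordered by level, NC cells carried PSAT1, then SHMT2, then PHGDH, MTHFD2 and PSPH, whose libraries overlapped their neighbours, then MTHFD1L, MTHFD1, SHMT1, ALDH1L2 and GLDC. In siGDF15 cells PSAT1 and SHMT2 still came before the others, and PSPH came next. MTHFD1 and MTHFD1L overlapped, and SHMT1 followed them. MTHFD2 and PHGDH came at places 7 and 8, where they had been at 4 and 3 in NC. PSAT1 made up 61.1%, 61.5% and 60.1% of the summed FPKM of the 10 genes in NC and 32.6%, 31.4% and 31.5% in siGDF15. The sum itself was 450, 441 and 450 FPKM in NC and 150, 146 and 149 FPKM in siGDF15, and without PSAT1 it was 175, 170 and 179 against 101, 100 and 102 FPKM. The decrease in the sum was thus mainly PSAT1, but the other 9 genes together were lower too.

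**Figure D3:**
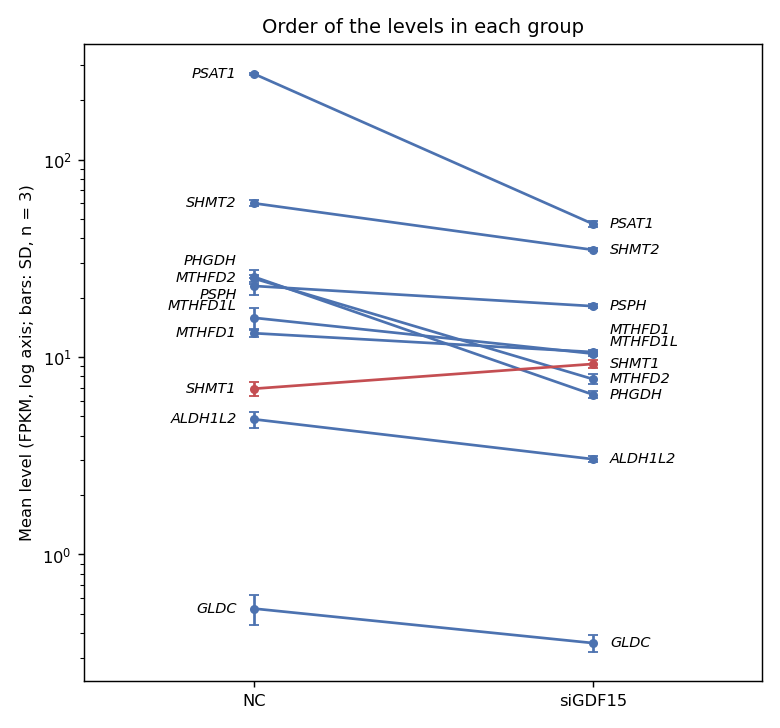
Mean level in FPKM on a log axis (bars, SD, n = 3) of each gene in NC and in siGDF15, joined by a line per gene. PHGDH and MTHFD2 cross below MTHFD1, MTHFD1L and SHMT1, and the SHMT1 line alone goes up.

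Ratios of mitochondrial to cytosolic partners, taken within a library, do not depend on how libraries are scaled. The FPKM of SHMT2 was 8.58, 7.80 and 9.84 times that of SHMT1 in NC and 3.79, 3.94 and 3.64 times in siGDF15, a log2 difference of -1.20. MTHFD2 was at 1.81, 1.89 and 1.97 times MTHFD1 in NC and at 0.756, 0.730 and 0.695 times in siGDF15, a difference of -1.38, so that the order of these genes turned. MTHFD1L was at 1.16, 1.10 and 1.34 times MTHFD1 in NC and at 0.933, 1.01 and 1.00 times in siGDF15, a difference of -0.28. In each of the 3 ratios the groups did not overlap. The ratios are made of the members' own values and share their choice.

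**Figure D4:**
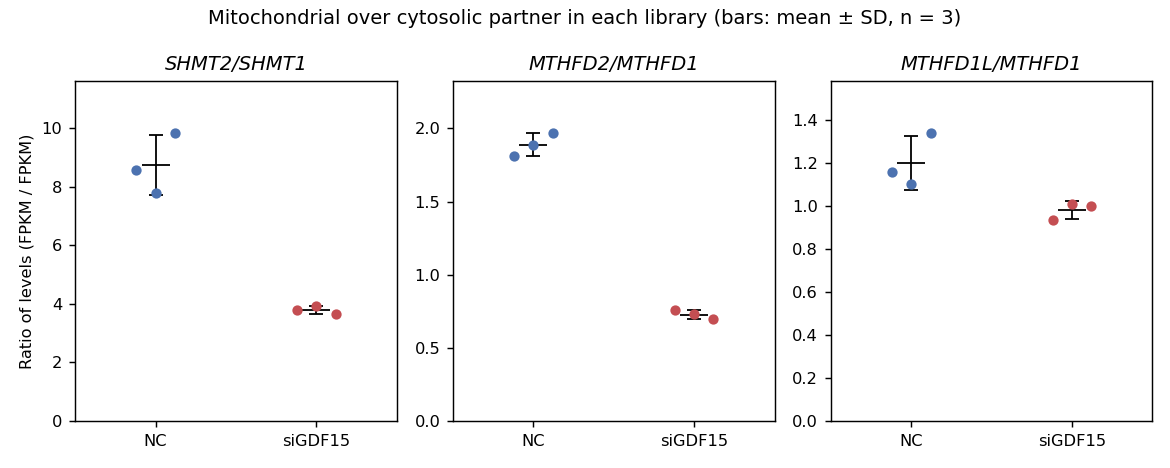
FPKM ratio of the mitochondrial to the cytosolic partner in each library, with the group mean and SD (n = 3). All 3 ratios are lower in siGDF15, and MTHFD2 over MTHFD1 falls from near 1.89 to near 0.727.

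The other genes of folate use were taken from a list of 17, of which 13 were tested. Of these, 3 were called higher, 6 lower and 4 not called (median log2 fold change -0.26). Over all genes tested, 30.0% were called higher and 31.4% lower. TYMS, the thymidylate synthase that spends a folate carbon on each new thymidylate, was at 78.7 ± 4.95 FPKM in NC and 24.4 ± 2.03 in siGDF15, a log2 fold change of -1.59 (SE 0.0763, adjusted p = 1.3e-06). GGH, which removes the glutamate tail of folates, went from 10.2 to 4.59 FPKM (-1.05). SLC25A32, the mitochondrial folate carrier, was higher in siGDF15 (0.38, adjusted p = 0.005). FPGS, which adds the glutamate tail, was called higher (0.20, adjusted p = 0.021) with overlapping FPKM values. That call was lost without NC replicate 1 (0.19, adjusted p = 0.076) and without siGDF15 replicate 1 (0.20, 0.053), 2 (0.19, 0.073) or 3 (0.21, 0.055), as well as without TMM (0.10, 0.19).

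A list of 16 glycine cleavage partners and other users of serine or glycine had 7 genes tested. Of these 7, 4 were called higher, 1 lower and 2 not called, where 30.0% of all genes were called higher and 31.4% lower. The median was 0.21, and 0.11 without TMM. SPTLC2, a subunit of serine palmitoyltransferase at the start of sphingolipid synthesis, was at 0.66 (adjusted p = 9.7e-06), while SPTLC1, its partner, was at -0.28 (adjusted p = 4.7e-04). GCSH, the lipoyl carrier that works with GLDC, was at 0.30 (adjusted p = 0.0062). ALAS1, which joins glycine to succinyl-CoA for heme, was at 0.22 (adjusted p = 0.015) and DLD, the lipoamide dehydrogenase, at 0.21 (adjusted p = 0.013). These 2 calls were lost without TMM (ALAS1 0.12, adjusted p = 0.12, and DLD 0.11, adjusted p = 0.13), which left 2 called higher. Leaving out NC replicate 1 also left 2 (ALAS1 0.21, adjusted p = 0.061, and DLD 0.20, adjusted p = 0.05), and ALAS1 was not called without siGDF15 replicate 2 (0.21, 0.055) or 3 (0.20, 0.065). AMT, the aminomethyltransferase of the cleavage system, was at 0.111 and 0.147 FPKM and was not tested.

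Of 6 purine synthesis enzymes, 4 were called lower and 2 were not called (median -0.34), where 31.4% of all genes were called lower. The 4 were PFAS (-0.61, adjusted p = 3.4e-04), PAICS (-0.60, adjusted p = 6.5e-05), GART (-0.48, adjusted p = 3.2e-04), which takes a formyl group from folate, and PPAT (-0.19, adjusted p = 0.02). PPAT was not called with every library scaled to the same median (-0.14, adjusted p = 0.079), which left 3 called lower, or without NC replicate 1 (-0.17, adjusted p = 0.071), siGDF15 replicate 1 (-0.17, 0.078) or siGDF15 replicate 3 (-0.18, 0.07). ATIC, the other enzyme that takes one, was at 35.9 and 34.8 FPKM with overlapping libraries (0.06, adjusted p = 0.51).

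In the methionine cycle and transsulfuration, 8 of 11 genes were tested, 5 were called lower, 2 higher and 1 not (median -0.30). Of all genes tested, 31.4% were called lower and 30.0% higher. CTH, which makes cysteine from cystathionine, was at -1.07 (adjusted p = 9.8e-05), MTAP, which salvages methylthioadenosine, at -0.80 and MAT2B, a regulatory subunit of methionine adenosyltransferase, at -0.50. MAT2A, its catalytic partner, was at -0.15 (adjusted p = 0.023) and was not called without NC replicate 1 (-0.14, adjusted p = 0.091), siGDF15 replicate 2 (-0.14, 0.08) or siGDF15 replicate 3 (-0.13, 0.098). CBS, which joins serine to homocysteine, was at -0.46 (adjusted p = 0.0063). Its near-identical copy ENSG00000274276, named CBSL in GENCODE 29, was at 21.8 FPKM in NC and 12.3 FPKM in siGDF15 (-0.73, adjusted p = 0.0021), and reads may be divided between the copies. AHCYL1 (0.34, adjusted p = 0.0027) and AHCYL2 (0.44, adjusted p = 0.018), relatives of the adenosylhomocysteine hydrolase, were called higher, and AHCYL2 was not called without NC replicate 1 (0.44, adjusted p = 0.054), siGDF15 replicate 2 (0.40, 0.06) or siGDF15 replicate 3 (0.42, 0.059), which left 1 gene called higher.

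ATF4 and genes known as its targets were listed as 16 genes, of which 15 were tested. Of the 15, 8 were called lower, 2 higher and 5 not called (median -0.35), beside 31.4% lower and 30.0% higher of all genes. ASNS, the asparagine synthetase, was at 31.6 ± 1.45 FPKM in NC and 4.50 ± 0.275 in siGDF15, a log2 fold change of -2.70 (SE 0.0589, adjusted p = 1.2e-07), a larger decrease than that of PSAT1. PCK2, the mitochondrial PEP carboxykinase, was at -2.14 (adjusted p = 6.1e-07) and CHAC1, a glutathione-degrading enzyme, at -2.03 (adjusted p = 5.2e-06). ATF4 mRNA itself was at 192, 185 and 200 FPKM in NC and 141, 140 and 140 FPKM in siGDF15, a log2 fold change of -0.35 (SE 0.0460, adjusted p = 2.6e-04). The list did not move as a block, since DDIT3, which encodes CHOP, was at 0.48 (adjusted p = 0.0045) and CEBPB at 0.29 (adjusted p = 0.0034). Without NC replicate 3, 4 genes of the list were called higher.

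**Figure D5:**
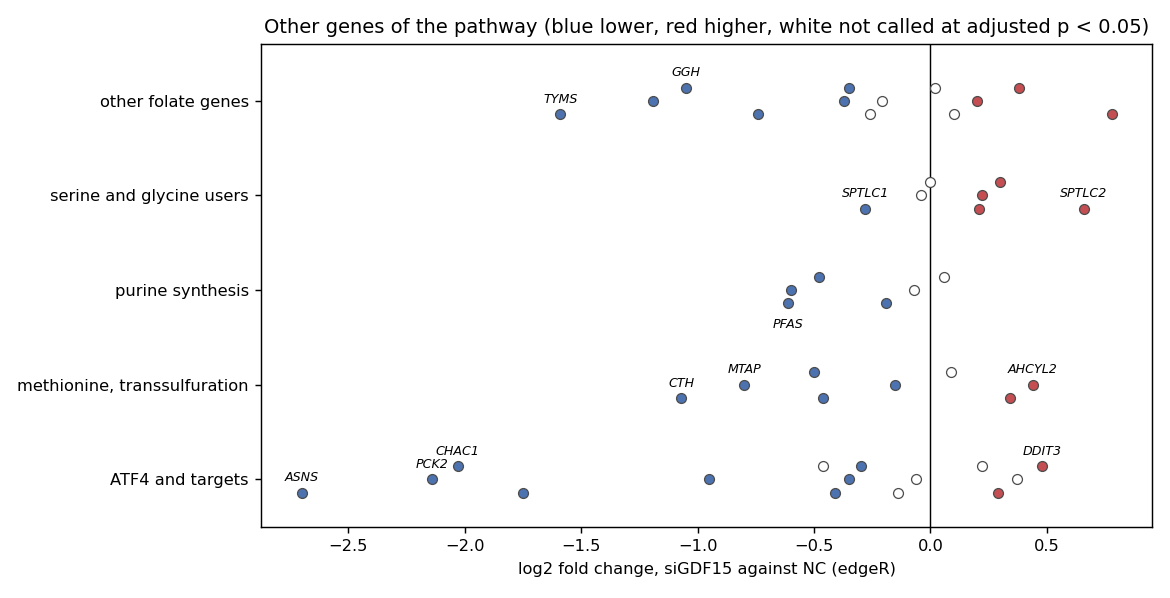
Log2 fold change, siGDF15 against NC, of the tested genes of 5 lists of other pathway genes, each a point, blue where called lower, red where called higher and white where not called. Among the genes beyond -1 are TYMS, GGH, CTH, ASNS, PCK2 and CHAC1, and the called serine and glycine users lie to the right of 0 in 4 of 5 cases.

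The pathway names in the deposited table gave a wider view with the 10 members left out. Beside the counts below stand the shares of all genes tested, 31.4% called lower and 30.0% called higher. Under the KEGG heading of the folate one-carbon pool, 9 of 14 genes were tested, with 1 called higher, 4 lower, TYMS, GART and MTR among them, and 4 not called (median -0.26). MTR, the methionine synthase, was at -0.35 (adjusted p = 8.3e-04). Under glycine, serine and threonine metabolism, 15 of 30 genes were tested, with 6 called higher, 4 lower and 5 not called. Its median was 0.05 and turned to -0.05 without TMM. Of the genes on no other list, GRHPR, a glyoxylate and hydroxypyruvate reductase, was at 0.70 (adjusted p = 1.7e-05), PGAM1, the glycolytic phosphoglycerate mutase, at 0.25 (adjusted p = 0.002) and GAMT, which makes creatine, at -0.26 (adjusted p = 0.012). ALDH7A1 was at 0.14 (adjusted p = 0.043), and it was not called without TMM (0.04, adjusted p = 0.52), with a filter of 0.1 FPKM (0.11, 0.12), with no filter (0.09, 0.33), with limma on log2(FPKM + 1) (0.03, 0.62) or log2(FPKM + 0.1) (0.04, 0.62), or on leaving out NC replicate 1 (0.13, 0.15), NC replicate 3 (0.12, 0.084) or siGDF15 replicate 1 (0.15, 0.073), 2 (0.16, 0.078) or 3 (0.13, 0.13). Without NC replicate 1, 3 genes of this pathway were called higher.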

How the data were processed

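Poly(A) RNA from 6 KHM-5M libraries, 3 NC and 3 siGDF15, was sequenced as strand-marked, paired-end libraries. Per the labels and the study's methods, the authors trimmed reads with fastp, aligned them to GRCh38 with HISAT2 and quantified them with StringTie, and edgeR is also named. Their versions and the counting options are not given in the sources used here. The deposited table gives FPKM and expected counts per gene for 34738 genes. The deposited expected counts are whole numbers worked out from coverage (4 was the most frequent value from 1 to 20), not tallied reads.

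The members and lists were chosen with earlier results of these data known. Counts were fitted with edgeR 4.0.16 (R 4.3.3, quasi-likelihood test, TMM) after a filter (mean FPKM of 1 or more, 11867 genes), with Benjamini-Hochberg adjustment over all of them. A gene was called at an adjusted p under 0.05. FPKM values, and the overlap of groups judged from them, are without TMM scaling, so FPKM ratios differ from the fitted fold changes. The median log2 fold change over all genes tested was 0.0026 with TMM and -0.0992 without it. Small changes can therefore differ in size or, as for ATIC, in sign. KEGG pathways came from the annotation in the table. Genes named were the members, GDF15, up to 3 called genes in each direction of each list, and TYMS, GCSH, AMT, ATF4, DDIT3, ASNS, PCK2 and CBS. PPAT, ATIC, DLD, MAT2A, MTR, MTHFD2L and the marker genes were named outside this rule after their values were seen, and some genes that the rule or the marker lists hold are not reported here. Alternatives were DESeq2 1.42.0, limma 3.58.1 on log2(FPKM + 1) or log2(FPKM + 0.1), other scalings and filters, a replicate block, and each library left out. Promoters were from RefSeq (GRCh38.p14) and exons from GENCODE 29. P-values measure only the spread between these libraries.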

Additional observations from a re-analysis of the deposited data

How the results depend on the processing

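Over 14 alternatives no member changed direction, 7 to 9 were called lower, and 3 passed both thresholds in each. The 9 include GLDC, which was fitted at a mean FPKM of at least 0.1, and with no filter 8 were called lower. Of all genes fitted, 3183 to 4679 were called lower over these alternatives, and 429 to 859 were lower past both thresholds. The genes fitted were 11867, or 19360 at a mean FPKM of at least 0.1 and 34738 with no filter. Nothing is read from the counts of members. Of the calls in the main fit only that of PSPH was lost, in 6 alternatives. Leaving out libraries took the PSPH log2 fold change from -0.32 to -0.17. GDF15 stayed between -1.02 and -0.86. Numbers shared by NC and siGDF15 libraries did not pair them (correlations of deviations 0.03, -0.08 and 0.05), and with the number as a replicate block 3391 genes were called higher and 3515 lower, 8 members lower. Under this replicate block the calls of PPAT (-0.19, adjusted p = 0.053), ALDH7A1 (0.15, 0.076) and CDH1 (0.65, 0.053) were lost.

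Over all genes with a log2 fold change of at least 1, 817 were higher and 852 lower at a mean FPKM of at least 0.1, 800 and 859 with no filter, and 131 were higher with limma on log2(FPKM + 1). At an adjusted p under 0.05 alone, 2701 of 11867 genes were called higher without TMM and 4071 with every library scaled to the same median. The limma fits called 2687 and 2682 higher. At a mean FPKM of at least 0.1, 3885 of 19360 genes were called higher, and with no filter 3300 of 34738. Leaving out libraries gave 3014 to 3665. The list counts below stand beside these. Serine and glycine users called higher numbered 2 without TMM and with both limma fits, and 2 to 4 on leaving out libraries. They numbered 6 at a mean FPKM of at least 0.1. That filter let in SDS, at 0.0301 FPKM in NC and 0.369 FPKM in siGDF15, only through its siGDF15 level. Nothing is therefore read from this count. Methionine and transsulfuration genes called higher numbered 1 without TMM, with no filter and with both limma fits, and 1 to 3 on leaving out libraries. ATF4 and its targets called higher numbered 4 with every library scaled to the same median, and 2 to 4 on leaving out libraries. For KEGG glycine, serine and threonine metabolism 3 were called higher without TMM and with both limma fits. In those fits its median turned to -0.05, -0.05 and -0.06. The number called higher was 7 at a mean FPKM of at least 0.1, and 3 to 6 on leaving out libraries. SDS belongs to this pathway too, so the same limit holds for the 7. The causes were not tested. GLDC, at 169 to 410 counts a library, was left out by the filter on mean FPKM. It was called lower when fitted at 0.1 and not called with no filter.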
